A study of Mus musculus with 9 samples.

Results

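The genes described here encode 9 muscarinic and adrenergic receptors of the mouse iris. They were selected by gene symbol from the 18349 genes listed in each of 9 RNA-Seq libraries: the muscarinic acetylcholine receptor genes Chrm1, Chrm2 and Chrm3, the α1 adrenergic receptor genes Adra1a, Adra1b and Adra1d, the α2 adrenergic receptor genes Adra2a and Adra2c, and the β adrenergic receptor gene Adrb1. The rule itself uses no measured value, but the genes were proposed with earlier results of these data known. All 9 genes passed the filter on low counts and were tested among 15010 genes.

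Iris tissue was compared in 3 groups of 3 libraries, and each library was made from 3 pooled irises of identical genotype. Sham VEGFR3fl/fl mice received PBS on the cornea, and injured VEGFR3fl/fl and injured VEGFR3iLECko mice received corneal alkali injury (CAI), a burn by sodium hydroxide (1 M, 0.5 μl) lasting 60 seconds, at 6 weeks of age. All groups carried the floxed VEGFR3 alleles on a C57BL/6J background. VEGFR3iLECko mice also carried Prox1-CreERT2, a tamoxifen-dependent Cre driven from the lymphatic gene Prox1, so that deletion was aimed at lymphatic endothelial cells and not at the muscle or pigment cells of the iris. Tamoxifen (80 mg/kg) was injected on days 13 to 17 after treatment in all 3 groups as labeled, and irises were collected at 10 weeks of age. The comparison of injured with Sham VEGFR3fl/fl irises asked what CAI changed, and that of the injured groups asked what the deletion changed.

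Pupil size is set by a pair of opposed iris muscles. The sphincter contracts in response to acetylcholine from parasympathetic axons, mainly through muscarinic receptors coupled to Gq, and the dilator contracts in response to noradrenaline from sympathetic axons through α1 receptors, also coupled to Gq. M2 receptors and α2 receptors couple to Gi and Go proteins and lower cyclic AMP, and α2 receptors on nerve endings restrain transmitter release, whereas β receptors couple to Gs and raise cyclic AMP. The libraries were made from whole irises, so sphincter, dilator, vessels, nerves and immune cells were not separated.

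The genes lie on 7 chromosomes of GRCm38 (mm10), all as protein-coding genes. Chrm2 spans chr6:36388084-36528414 on the plus strand and Chrm3 spans chr13:9875486-10360847 on the minus strand, Adra2a is a short gene at chr19:54044151-54048982, and Adrb1 lies farther along the same chromosome at chr19:56722199-56733113. An antisense noncoding gene overlaps Chrm2 (9330158H04Rik), Chrm3 (Gm26861) and Adra1d (Gm14285), and a small RNA gene on the opposite strand overlaps Chrm1 (Gm22820). Genes on the same strand also overlap Chrm2 (Mir490) and Chrm3 (Gm47411, Gm47404 and 9330159N22Rik). These overlaps are of whole gene spans, introns included, and overlap of exons was not examined. Whether counting used strand is not given in the sources used here, so how far overlapping genes entered the counts of these 4 receptor genes was not tested.

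RefSeq promoter windows matched 6 of the 9 genes. The 250 bases upstream of the start are shown for Chrm2 (chr6:36387834-36388083, plus strand) and Adrb1 (chr19:56721867-56722116, plus strand), the members with the largest decreases after injury, from RefSeq on GRCm38.p6. Capitals mark a GC box.

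Chrm2: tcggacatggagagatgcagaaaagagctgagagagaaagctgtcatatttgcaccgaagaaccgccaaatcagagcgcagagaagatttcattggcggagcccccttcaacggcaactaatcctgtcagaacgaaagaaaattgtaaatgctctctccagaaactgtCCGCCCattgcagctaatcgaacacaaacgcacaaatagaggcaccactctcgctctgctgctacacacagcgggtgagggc
Adrb1: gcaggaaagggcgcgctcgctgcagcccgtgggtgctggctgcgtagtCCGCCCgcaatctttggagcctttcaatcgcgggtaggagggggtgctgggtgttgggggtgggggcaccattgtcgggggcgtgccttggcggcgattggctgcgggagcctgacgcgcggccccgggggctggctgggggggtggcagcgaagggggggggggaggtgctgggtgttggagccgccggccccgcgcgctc

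Each window held 1 GC box (GGGCGG on either strand), which was present in 32.7% of 32851 mouse promoter windows of the same length. Neither held a TATA box (TATAAA), an AP-1 site (TGANTCA), a cyclic AMP response element (TGACGTCA), an E-box (CANNTG) or a CArG box, each searched on both strands. Their GC content was 50% for Chrm2 and 74.0% for Adrb1, against a median of 52.4% over all windows. Of the 7 windows of the 6 genes, 4 held a GC box, 2 an E-box (66.2% of all windows), 1 a TATA box (12.4%) and 1 an AP-1 site (6.7%), and none held a cyclic AMP response element or a CArG box (1.5% each).

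Library totals ran from 16617187 to 18306359 estimated counts. The targeted gene, Flt4 (VEGFR3), stood at 15.6, 13.4 and 14.9 CPM (read counts scaled to the library total, with TMM factors) in the Sham, 16.8, 20.7 and 23.0 in the injured VEGFR3fl/fl and 27.9, 20.96 and 27.4 CPM in the injured VEGFR3iLECko libraries. It was therefore not lower in the libraries labeled VEGFR3iLECko (log2 fold change 0.33 versus injured VEGFR3fl/fl, edgeR quasi-likelihood test, adjusted p = 0.200), and statements about these libraries rest on their labels. Genes on the Y chromosome were expressed in the 3 Sham libraries and in injured VEGFR3fl/fl replicates 1 and 2 (mean log2 CPM 3.65 to 5.25) and were near background in injured VEGFR3fl/fl replicate 3 and in all 3 injured VEGFR3iLECko libraries (-2.40 to -2.07). As a check of the tissue, all 16 smooth muscle genes listed for iris muscle were tested and summed to 11400 to 14500 CPM in Sham libraries, while 10 retinal genes varied in their sum from 17 to 994 CPM between libraries without following the groups.

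After CAI, Chrm2 and the main α1 receptor genes were lower and Adra2a was higher. Chrm2 was downregulated 21.8-fold, Adrb1 4.51-fold, Adra1a 3.37-fold, Adra1b 3.03-fold and Chrm3 2.10-fold, whereas Adra2a was upregulated 5.4-fold and Adra1d 1.92-fold. Thus 7 of 9 genes were differentially expressed genes (DEGs, over 1.5-fold with an adjusted p under 0.05), 2 upregulated and 5 downregulated, and Chrm1 and Adra2c did not pass. Over all genes tested, 39.7% were DEGs, 22.1% upregulated and 17.5% downregulated. The groups did not overlap for the same 7 receptor genes, nor for 66.3% of all genes (33.9% higher and 32.4% lower after injury). The median log2 fold change was -1.07 over the 9 genes and 0.01 over all genes tested. With 3 libraries against 3, an exact permutation test cannot go below p = 0.1, and it gave 0.1 (two-sided) for each of these 7 genes. In bulk tissue, fewer cells of a type and less RNA per cell cannot be told apart.

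**Figure D1:**
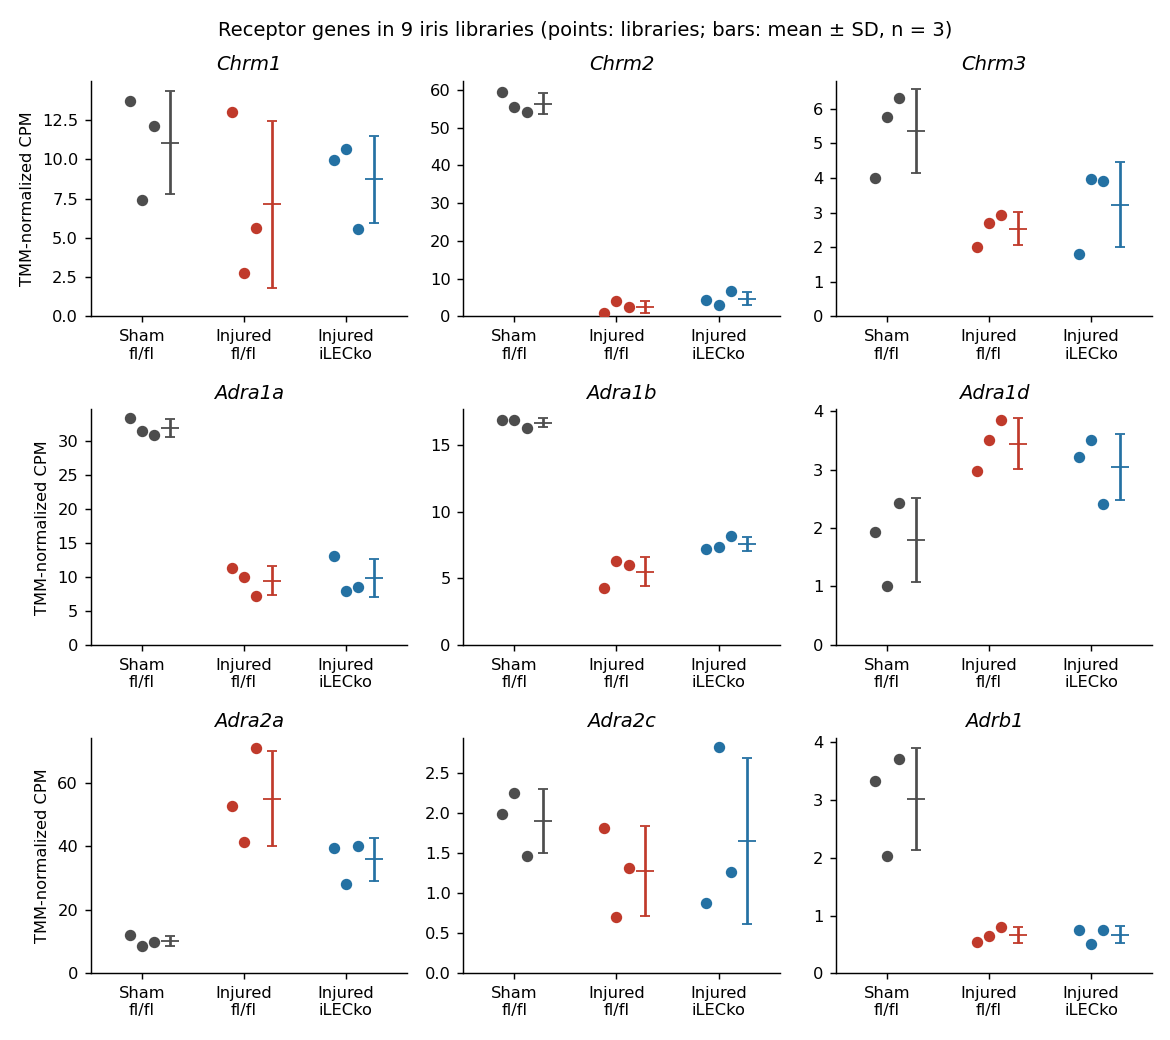
TMM-normalized CPM (linear axes starting at 0) of each receptor gene in the 9 libraries, with points for libraries 1 to 3 of a group from left to right and a bar for the mean ± SD (n = 3). Every Sham library lies above every injured library for Chrm2, Adra1a, Adra1b and Adrb1 and below every injured library for Adra2a, while Chrm1 and Adra2c overlap among the groups.

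Chrm2 encodes the M2 receptor, which couples to Gi and Go. It stood at 59.4, 55.4 and 54.2 CPM in Sham irises, at 1.03, 4.22 and 2.47 CPM in injured VEGFR3fl/fl irises and at 4.38, 3.12 and 6.68 CPM in injured VEGFR3iLECko irises. Every injured library was thus far below every Sham library. Injured versus Sham VEGFR3fl/fl irises gave a log2 fold change of -4.44 (SE 0.40, edgeR quasi-likelihood test with Benjamini-Hochberg adjustment, adjusted p = 1.62e-05). The fold rested on a mean of 2.57 ± 1.59 CPM in the injured group (SD, n = 3), and injured VEGFR3fl/fl replicate 1 held 17 counts. The log2 fold change ran from -4.99 to -4.07 when single libraries were left out. Among the other genes with a mean of at least 1 CPM, the profile over the 9 libraries was most like those of Cfap54 (Pearson r = 0.997 on log2 CPM), Met (0.996) and Zfp740 (0.996), given as a description since any gene that separates Sham from injured libraries scores high.

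Chrm3 encodes the M3 receptor, which couples to Gq and drives contraction of the sphincter. It was read at 3.99, 5.76 and 6.31 CPM in Sham irises, at 2.003, 2.69 and 2.93 CPM in injured VEGFR3fl/fl irises and at 1.81, 3.97 and 3.91 CPM in injured VEGFR3iLECko irises. All injured libraries were below all Sham libraries, although Sham replicate 1 was only just above the highest injured library. The log2 fold change after injury was -1.07 (SE 0.33, edgeR, adjusted p = 0.0186). The call was lost without Sham replicate 2 (adjusted p = 0.0521), Sham replicate 3 (0.0673) or injured VEGFR3fl/fl replicate 1 (0.0510), and over all alternatives the adjusted p ran from 0.00490 to 0.0673.

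Chrm1 encodes the M1 receptor, another Gq-coupled receptor, common in neurons. Its levels were 13.7, 7.40 and 12.1 CPM in Sham irises, 13.1, 2.75 and 5.63 CPM in injured VEGFR3fl/fl irises and 9.99, 10.7 and 5.58 CPM in injured VEGFR3iLECko irises. The groups overlapped, with injured VEGFR3fl/fl replicate 1 at the level of the highest Sham library. The log2 fold change after injury was -0.64 (95% confidence interval -1.76 to 0.49, edgeR, adjusted p = 0.298). It became -1.40 with an adjusted p of 0.0155 without injured VEGFR3fl/fl replicate 1, a library in which the 5 listed corneal epithelial markers summed to 118 CPM against 3.45 and 12.2 CPM in the other injured VEGFR3fl/fl libraries. Aldh3a1 alone made up 117 CPM of that sum, whereas the corneal keratin gene Krt12 was at 0.182 CPM there, and the part of these markers in the level of Chrm1 was not tested.

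Adra1a encodes the α1A receptor, a Gq-coupled receptor of the dilator. It stood at 33.3, 31.5 and 31.0 CPM in Sham irises, at 11.3, 9.95 and 7.18 CPM in injured VEGFR3fl/fl irises and at 13.0, 7.99 and 8.54 CPM in injured VEGFR3iLECko irises. The Sham libraries were within a narrow band, well above all injured ones. Injury gave a log2 fold change of -1.75 (SE 0.21, edgeR, adjusted p = 8.98e-05).

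Adra1b encodes the α1B receptor and changed alongside it. Its levels were 16.8, 16.9 and 16.3 CPM in Sham irises, 4.25, 6.26 and 5.97 CPM in injured VEGFR3fl/fl irises and 7.19, 7.31 and 8.17 CPM in injured VEGFR3iLECko irises. All 3 groups were separate, with the injured VEGFR3iLECko libraries between the others. Its log2 fold change after injury was -1.60 (SE 0.16, edgeR, adjusted p = 2.59e-05).

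Adra1d encodes the α1D receptor, known from vascular smooth muscle, and was the α1 gene that differed in the opposite direction. It was read at 1.94, 1.02 and 2.42 CPM in Sham irises, at 2.97, 3.51 and 3.85 CPM in injured VEGFR3fl/fl irises and at 3.21, 3.51 and 2.42 CPM in injured VEGFR3iLECko irises. The injured VEGFR3fl/fl libraries were above the Sham libraries, and injured VEGFR3iLECko replicate 3 met the highest Sham library. For Adra1d, the log2 fold change after injury was 0.94 (SE 0.32, edgeR, adjusted p = 0.0285), resting on 18 to 67 counts per library. This call was lost when any of Sham replicates 1 and 2 (adjusted p = 0.0592 and 0.0644) and injured VEGFR3fl/fl replicates 2 and 3 (0.0578 and 0.0766) was left out. It was also lost with the Y-linked level as a covariate (log2 fold change 0.90, edgeR, adjusted p = 0.0603), with a replicate block (0.0511) and when libraries were scaled by their totals alone (0.0659), a scaling that shifted the median over all genes tested from 0.01 to -0.16 and the upregulated share of DEGs from 55.8% to 44.1%, while the other 8 receptor genes kept their calls.

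Adra2a encodes the α2A receptor, which couples to Gi and Go and is found on nerve endings, immune cells and vessels. It stood at 11.96, 8.76 and 9.80 CPM in Sham irises, at 52.8, 41.3 and 70.9 CPM in injured VEGFR3fl/fl irises and at 39.5, 28.04 and 40.1 CPM in injured VEGFR3iLECko irises. Each injured library exceeded every Sham library, and the injured groups were themselves separate by a small margin. Adra2a had a log2 fold change of 2.43 after injury (SE 0.23, edgeR, adjusted p = 2e-05). Its profile over the 9 libraries was most like those of Slc35c1 (Pearson r = 0.986), the potassium channel gene Kcnk13 (0.986) and the T cell receptor zeta chain gene Cd247 (0.985). Marker lists of macrophages (9 of 10 genes upregulated), T cells (8 of 8), blood endothelium (6 of 8) and pericytes (4 of 6) were higher after injury too, against 22.1% upregulated over all genes tested. Macrophage markers summed to 392 to 403 CPM in Sham and 3290 to 3630 CPM in injured VEGFR3fl/fl libraries, T cell markers to 4.79 to 5.21 and 40.5 to 58.7 CPM, blood endothelial markers to 473 to 497 and 1280 to 1500 CPM, and pericyte markers to 243 to 279 and 609 to 751 CPM. No listed marker of these cells was at 0 in all libraries, and their part in the level of Adra2a was not tested.

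Adra2c encodes the α2C receptor, and its levels were low throughout. They were 1.99, 2.26 and 1.46 CPM in Sham irises, 1.82, 0.703 and 1.32 CPM in injured VEGFR3fl/fl irises and 0.876, 2.83 and 1.27 CPM in injured VEGFR3iLECko irises. All groups overlapped. The log2 fold change after injury was -0.57 (95% confidence interval -1.66 to 0.52, edgeR, adjusted p = 0.333), an interval that holds both no change and decreases beyond 1.5-fold, at 12 to 50 counts per library.

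Adrb1 encodes the β1 receptor, which couples to Gs. It stood at 3.32, 2.03 and 3.72 CPM in Sham irises, at 0.546, 0.644 and 0.804 CPM in injured VEGFR3fl/fl irises and at 0.760, 0.510 and 0.748 CPM in injured VEGFR3iLECko irises. Every injured library was below every Sham library, with 9 to 14 counts in each injured library against 36 to 66 counts in Sham libraries. Adrb1 had a log2 fold change of -2.17 after injury (SE 0.33, edgeR, adjusted p = 0.000398).

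The calls for Chrm2, Adra1a, Adra1b, Adra2a and Adrb1 held in every alternative fit run, with adjusted p of at most 0.00269 in this comparison. Without injured VEGFR3fl/fl replicate 3, which lacked Y-linked expression and so differed from the Sham libraries in that as well, the same 5 receptor genes and Chrm3 were called. Adra1d then had a log2 fold change of 0.85 (edgeR, adjusted p = 0.0766).

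On the same measure of likeness, Pearson's r of log2 CPM over the 9 libraries, Adra1a was closest to Pcbp4 (0.997), Efhd1 (0.994) and Adam11 (0.992). Adra1b was closest to Tchh (0.998), Arap2 (0.997) and Mboat2 (0.996), and Adrb1 to Tmem129 (0.989), Ccl27b (0.981) and Zfp446 (0.979). The closest profiles were less alike for the genes whose calls depended on single libraries, with Topors (0.961) and Rabgap1 (0.937) for Chrm3 and Pon2 (0.965), Cmtr2 (0.957) and Ncoa3 (0.923) for Adra1d. Likeness in r did not mean likeness in size, since Topors differed by -0.23 on the log2 scale after injury and Pon2 by 0.17.

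**Figure D2:**
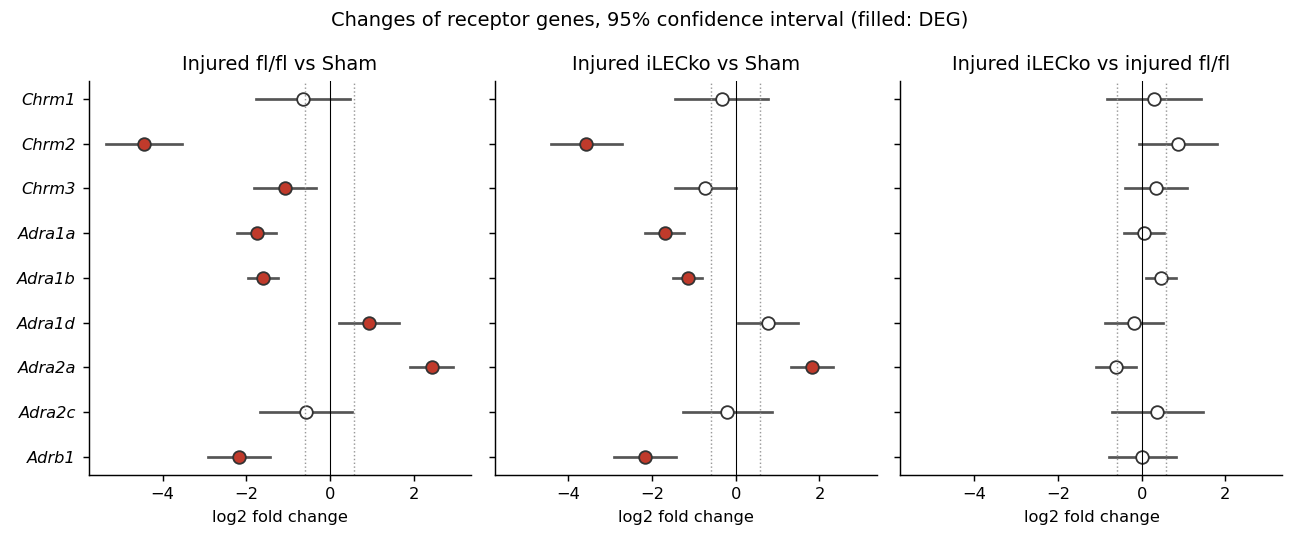
Log2 fold changes (horizontal axes) of the 9 receptor genes in the 3 comparisons, as points with 95% confidence intervals from the edgeR fit, filled where the gene was a DEG, with dotted lines at 1.5-fold. Filled points stand at 7 genes for injured VEGFR3fl/fl versus Sham, at 5 genes for injured VEGFR3iLECko versus Sham and at no gene between the injured groups.

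Levels were compared between the 9 genes per transcript length, as approximate TPM. In Sham irises, Chrm2 was highest at 28.4 ± 2.30 TPM (SD, n = 3), followed by Adra1a at 21.4 ± 1.55 and Adra1b at 14.3 ± 0.594 TPM, and no library of these 3 genes overlapped the next gene in the order. Adra2a (6.05 TPM), Chrm1 (5.10), Chrm3 (3.52), Adrb1 (2.95), Adra1d (2.72) and Adra2c (1.58) followed, and neighbors among these 6 overlapped. In injured VEGFR3fl/fl irises, Adra2a led at 26.6 ± 8.15 TPM and did not overlap any other of the 9 genes, whereas Chrm2 had rank 7 at 1.08 ± 0.707 TPM. Adra1a (5.11 TPM), Adra1d (4.25) and Adra1b (3.88) followed Adra2a and overlapped as neighbors. In injured VEGFR3iLECko irises, Adra2a led again at 19.1 ± 3.20 TPM, and Chrm2 had rank 6 at 2.15 ± 0.810 TPM. With the median transcript length in place of the longest, the genes that led, and the separation of the first 3 in Sham irises and of Adra2a in injured irises, were as above, but ranks among overlapping genes moved. Chrm1, Chrm3 and Adra2a took ranks 4, 5 and 6 in Sham irises, Adrb1 and Adra2c ranks 8 and 9 in injured VEGFR3fl/fl irises, and Chrm1, Adra1d, Chrm3 and Chrm2 ranks 4, 5, 6 and 7 in injured VEGFR3iLECko irises.

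The makeup of the member genes of each receptor family differed accordingly on the TPM scale. The 3 muscarinic genes summed to 37.0 ± 3.35 TPM in Sham, 5.02 ± 0.711 in injured VEGFR3fl/fl and 7.70 ± 0.735 TPM in injured VEGFR3iLECko irises (SD, n = 3). Chrm2 made up 73.8% to 79.5% of that sum in Sham irises, 6.67% to 41.2% in injured VEGFR3fl/fl irises and 17.4% to 39.6% in injured VEGFR3iLECko irises. Its share was therefore lower in every injured library, at the smallest p the exact permutation test allows (0.1).

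The 3 α1 genes summed to 38.4 ± 2.81 TPM in Sham, 13.2 ± 1.56 in injured VEGFR3fl/fl and 16 ± 1.26 TPM in injured VEGFR3iLECko irises. Within this sum, Adra1d made up 4.13% to 9.52% in Sham irises, 28.6% to 36.9% in injured VEGFR3fl/fl irises and 22.2% to 31.3% in injured VEGFR3iLECko irises. In injured VEGFR3fl/fl irises the 3 genes overlapped as neighbors in level, whereas in Sham irises Adra1a and Adra1b were both separate from Adra1d.

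The 6 adrenergic genes together summed to 48.9 ± 4.71, 41.2 ± 8.40 and 36.9 ± 2.68 TPM in the same 3 groups. Adra2a made up 11.2% to 13.7% of this sum in Sham, 56.9% to 70.5% in injured VEGFR3fl/fl and 45.7% to 56.7% in injured VEGFR3iLECko irises. The summed adrenergic level thus overlapped between Sham and injured VEGFR3fl/fl libraries while the shares of 5 of the 6 genes did not (exact permutation p = 0.1 each), the exception being Adra2c at 2.48% to 4.07% and 1.36% to 3.09% (p = 0.2).

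**Figure D3:**
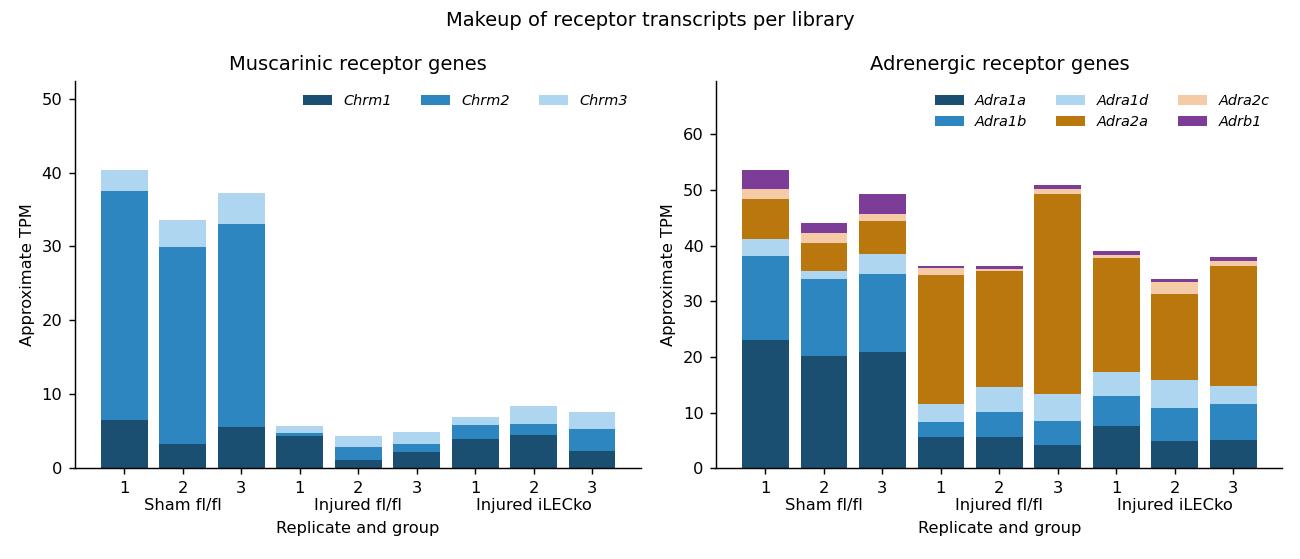
Approximate TPM of the 3 muscarinic genes (left, Chrm4 not included) and 6 adrenergic genes (right) of the receptor group, stacked for each of the 9 libraries. Chrm2 fills 73.8% to 79.5% of the muscarinic bars in Sham libraries, and Adra2a fills 56.9% to 70.5% of the adrenergic bars in injured VEGFR3fl/fl libraries.

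Most markers of the iris muscle and pigment cells were lower together with these receptors. Of 16 smooth muscle genes, 13 were downregulated after injury and 3 did not pass (median log2 fold change -1.62), among them Myh11 (smooth muscle myosin, -3.34), Synpo2 (an actin-binding protein, -2.96) and Cnn1 (calponin, -2.76), and Acta2 (smooth muscle actin) had a log2 fold change of -1.66. The 3 that did not pass were Actg2 (0.07), Des (-0.44) and Cald1 (0.29), and Cald1 was higher in every injured VEGFR3fl/fl library than in every Sham library. All 16 genes, these 3 included, summed to 11400 to 14500 CPM in Sham, 2930 to 5070 in injured VEGFR3fl/fl and 3920 to 5610 CPM in injured VEGFR3iLECko libraries. All 8 pigment cell genes were downregulated (median -2.47), and summed to 31000 to 33100, 3820 to 6550 and 5800 to 7930 CPM. For both lists, the share downregulated over all genes tested was 17.5%.

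Per 1000 CPM of the smooth muscle genes, Adra1a was at 2.18 to 2.91 CPM in Sham and 1.96 to 3.85 CPM in injured VEGFR3fl/fl libraries, and Adra1b at 1.17 to 1.47 and 1.24 to 1.65 CPM. These ranges overlapped (exact permutation p = 1.0 and 0.5). Chrm2 was at 3.83 to 5.19 CPM in Sham and at 0.352 to 0.831 CPM in injured VEGFR3fl/fl libraries on this scale, so it was lower relative to smooth muscle genes as well, without overlap. Chrm3 was at 0.348 to 0.527 and 0.531 to 0.808 CPM, barely separate in the opposite direction. Adra2a was at 0.606 to 1.05 and 8.14 to 19.6 CPM and Adra1d at 0.0703 to 0.202 and 0.693 to 1.06 CPM, both higher without overlap. Adrb1 overlapped at 0.141 to 0.311 and 0.127 to 0.222 CPM. Scaled to the pigment cell genes instead, the picture for α1 receptors differed: per 1000 CPM of these, Adra1a was at 0.951 to 1.08 CPM in Sham and 1.10 to 2.96 CPM in injured VEGFR3fl/fl libraries, and Adra1b at 0.510 to 0.544 and 0.912 to 1.11 CPM. Both were thus higher after injury without overlap on that scale (exact permutation p = 0.1, the smallest possible), while Chrm2 was lower on it as well, at 1.67 to 1.92 and 0.270 to 0.702 CPM. Either scaling describes the libraries, and whether the receptors lie in the same cells as the markers was not tested.

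**Figure D4:**
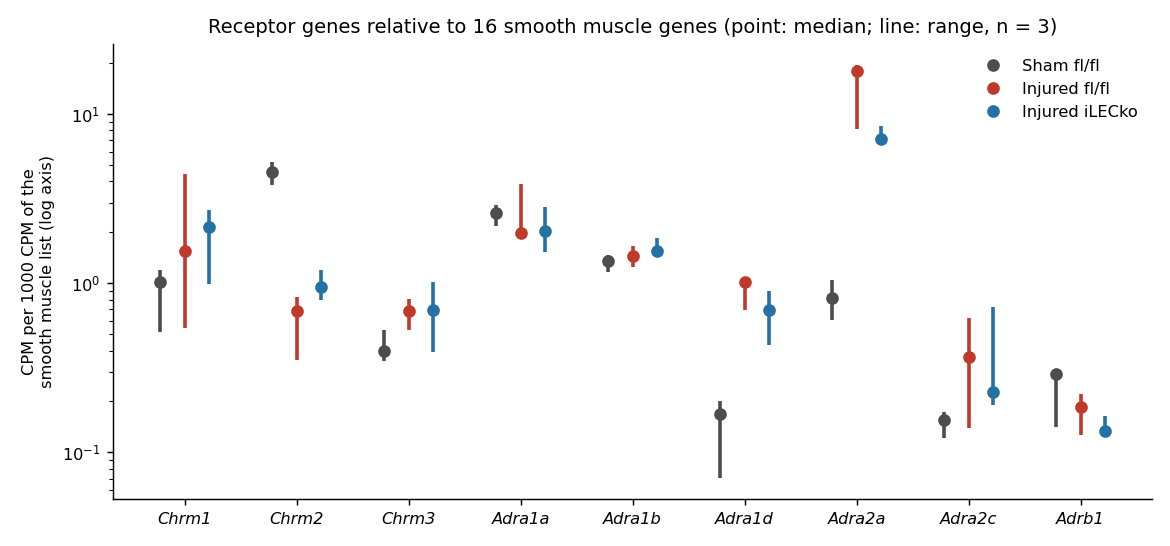
Receptor level per 1000 CPM of the 16 smooth muscle genes (log axis) in the 3 groups, with points for the median and lines for the range of 3 libraries. Adra1a and Adra1b overlap between Sham and injured VEGFR3fl/fl libraries, Chrm2 lies lower and Adra1d and Adra2a lie higher in the injured ones.

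Of the muscarinic and adrenergic receptor genes outside the 9, Chrm5, Adra2b and Adrb3 were below the filter. Chrm4, which encodes the Gi-coupled M4 receptor, stood at 71.8, 81.9 and 68.1 CPM in Sham, at 5.64, 12.8 and 10.4 in injured VEGFR3fl/fl and at 12.1, 8.33 and 11.97 CPM in injured VEGFR3iLECko irises. It was downregulated after injury (log2 fold change -2.94, edgeR, adjusted p = 1.52e-05) and, at 147 ± 9.90 TPM in Sham irises (SD, n = 3), exceeded each of the 9 genes per transcript length.

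The nicotinic receptor genes, which encode acetylcholine-gated channels, were measured beside the muscarinic ones. Of 9 tested, 5 were downregulated, none was upregulated and 4 did not pass (median log2 fold change -1.91, against 0.01 over all genes). Over all genes tested, 17.5% were downregulated and 22.1% upregulated. Chrnb3 stood at 97.7, 101 and 93.8 CPM in Sham and at 3.16, 5.85 and 5.97 CPM in injured VEGFR3fl/fl irises (log2 fold change -4.28, edgeR, adjusted p = 2.81e-07). Chrna7 and Chrna2 had log2 fold changes of -2.39 and -2.33 (edgeR, adjusted p = 0.00791 and 0.000198), and Chrnb4 of -1.34 (2.16e-05).

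The transmitters are made by neurons whose cell bodies lie outside the iris. Chat, which makes acetylcholine, and Th and Dbh, which make noradrenaline, were at 0.117 CPM or less in every library. Of the 5 tested genes for acetylcholine synthesis, transport and breakdown, 1 was upregulated and 2 were downregulated (22.1% and 17.5% over all genes). The choline transporter gene Slc5a7 was at 0.111, 0 and 0 CPM in Sham and at 0.486, 1.58 and 9.19 CPM in injured VEGFR3fl/fl irises (edgeR, adjusted p = 0.00489), and since the Sham libraries held 2 counts of it in all, no fold is given. Bche, which encodes butyrylcholinesterase, and Prima1, which anchors acetylcholinesterase at membranes, had log2 fold changes of -1.48 and -1.24 (edgeR, adjusted p = 0.00455 and 7.79e-05).

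Of the 7 tested genes for noradrenaline synthesis, transport and breakdown, 2 were upregulated and 1 was downregulated. Over all genes tested, 22.1% were upregulated and 17.5% downregulated. The noradrenaline transporter gene Slc6a2 was at 0.554, 0.282 and 0.394 CPM in Sham and at 1.15, 6.38 and 8.79 CPM in injured VEGFR3fl/fl irises (log2 fold change 3.71, edgeR, adjusted p = 0.00285). Cyb561, a cytochrome of secretory vesicles, had a log2 fold change of 1.18, and Maob, a monoamine oxidase, of -1.14 (edgeR, adjusted p = 4.02e-06 and 0.000774). Neuron and axon markers were higher after injury in 6 of 9 tested genes (median log2 fold change 1.76), with Nefm, a neurofilament, at 1.19 to 2.76 CPM in Sham and 36.9 to 166 CPM in injured VEGFR3fl/fl libraries. The other 3 did not pass and differed in direction, with log2 fold changes of 0.85 for Gap43, 0.04 for Snap25 and -1.92 for Syt1. Syt1 was lower without overlap, at 25.1 to 32.8 CPM in Sham and 1.15 to 19.4 CPM in injured VEGFR3fl/fl libraries (edgeR, adjusted p = 0.0836). In injured VEGFR3fl/fl replicates 1 to 3, Snap25 was at 1.15, 16.8 and 0.230 CPM and Syt1 at 1.15, 19.4 and 1.67 CPM. Retinal genes summed to 39.9, 655 and 17 CPM in the same libraries, and the part of retina in these levels was not tested. Schwann cell markers were lower in 6 and higher in 1 of 10 genes.

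Downstream of the receptors, the 16 Gq and phospholipase C genes included 5 upregulated, 3 downregulated and 8 not passing (median 0.15), against 22.1% upregulated and 17.5% downregulated over all genes, so these counts lie near the background. Plcb4, a phospholipase C, was downregulated from 316, 330 and 318 CPM to 39.3, 75.6 and 86.6 CPM (log2 fold change -2.26, edgeR, adjusted p = 5.96e-05), whereas Plcb2 and Gna15, known from blood cells, had log2 fold changes of 4.65 and 3.49 (2.79e-07 and 5.95e-06).

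Of the 7 tested Gi and Go subunit and potassium channel genes, 4 were downregulated and 1 was upregulated (median -1.17), against 17.5% and 22.1% over all genes. Kcnj3, a subunit of the potassium channel opened by M2 receptors in the heart, fell from 27.0, 26.9 and 25.6 CPM to 1.52, 5.03 and 3.62 CPM (log2 fold change -2.96, edgeR, adjusted p = 5.74e-05). Gnaz and Gnao1 had log2 fold changes of -1.70 and -1.62 (8.29e-06 and 4.01e-07) and Gnai2, the most abundant gene of the list, of 0.75 (0.000133).

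Of the Gs, adenylyl cyclase and protein kinase A genes, 5 were upregulated, 5 downregulated and 7 did not pass (median -0.30). The shares over all genes tested were 22.1% upregulated and 17.5% downregulated. Adcy7 and Adcy4 had log2 fold changes of 3.52 and 1.87 and Adcy1 of -2.26 (edgeR, adjusted p = 1.95e-07, 7.97e-06 and 0.000200), while Gnas, which encodes the Gs subunit itself, was at -0.16 (0.498). Genes that end receptor signals, the receptor kinases, arrestins and RGS proteins, included 9 upregulated and no downregulated gene of 13 (median 0.94). Among them were Rgs16, Arrb2 and Rgs2 with log2 fold changes of 2.2, 2.01 and 2 (edgeR, adjusted p = 0.000677, 1.48e-07 and 0.000151).

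**Figure D5:**
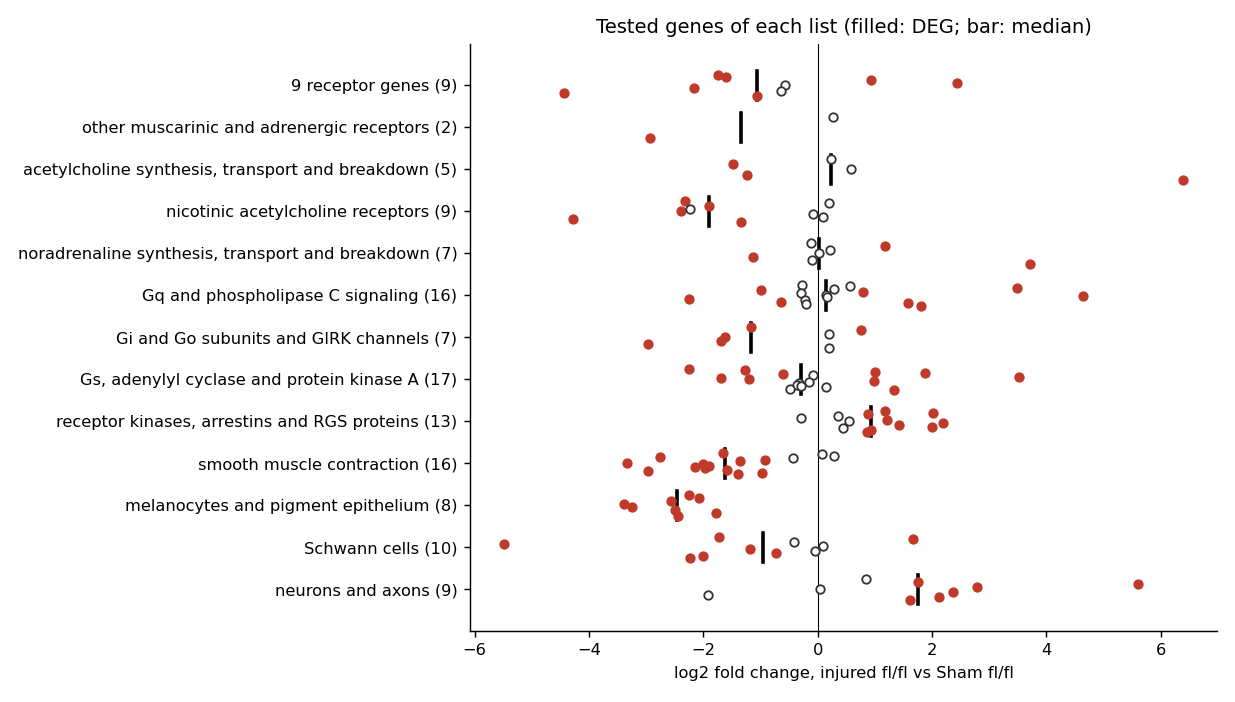
Log2 fold change of injured VEGFR3fl/fl versus Sham irises for each tested gene of the receptor group, the pathway lists and 4 marker lists, filled where the gene was a DEG, with a bar at the median and the number of tested genes in parentheses. The receptor group lies at a median of -1.07 with members on both sides, nicotinic receptors at -1.91, smooth muscle genes at -1.62 and receptor kinases, arrestins and RGS proteins at 0.94.

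In injured VEGFR3iLECko versus Sham irises, 5 receptor genes were DEGs. Adra2a was upregulated 3.52-fold (log2 fold change 1.82, SE 0.22), and Chrm2 was downregulated 11.9-fold (-3.57, SE 0.37), Adrb1 4.46-fold (-2.16, SE 0.33), Adra1a 3.24-fold (-1.70, SE 0.21) and Adra1b 2.2-fold (-1.14, SE 0.15), with adjusted p of 0.000505 or less in the edgeR fit. Over all genes, 34.8% were DEGs, 19.7% upregulated and 15.0% downregulated. Chrm3 (log2 fold change -0.73, edgeR, adjusted p = 0.0845) and Adra1d (0.76, 0.0683) did not pass, nor did Chrm1 (-0.34, 0.584) and Adra2c (-0.20, 0.746). The groups did not overlap for 6 of 9 genes, Chrm3 included, and for 66.5% of all genes (33.3% higher and 33.2% lower). This comparison shares its Sham libraries with the one above and its injured libraries with the one below. Sham and injured VEGFR3iLECko libraries also differed in Y-linked expression without overlap, so genotype, injury and Y-linked expression cannot be told apart in this comparison. A Y-linked covariate cannot separate genotype from injury. It rests largely on the injured VEGFR3fl/fl group, where replicates 1 to 3 had Y-linked levels of 4.82, 4.89 and -2.38 (mean log2 CPM). With the Y-linked level as a covariate the same 5 genes were called, at log2 fold changes of -3.52 for Chrm2, -2.45 for Adrb1, -1.20 for Adra1a, -1.31 for Adra1b and 1.27 for Adra2a.

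Between the injured groups, no receptor gene was a DEG. Of 15010 genes, 1.04% were (0.573% upregulated and 0.466% downregulated), and the groups did not overlap for 2 of 9 receptor genes and for 26.6% of all genes (12.4% higher and 14.3% lower in injured VEGFR3iLECko irises). An unadjusted p under 0.05 was given by edgeR to 2 receptor genes, Adra1b and Adra2a, by limma-voom to 2 and by DESeq2 to 3, with none called by any of these tools. The share of all genes under that unadjusted threshold is not given here, so no result is drawn from these counts. Adra1b was higher in all 3 injured VEGFR3iLECko libraries (7.19 to 8.17 CPM) than in injured VEGFR3fl/fl libraries (4.25 to 6.26 CPM), with a log2 difference of 0.46 (95% confidence interval 0.11 to 0.81, edgeR, adjusted p = 0.131). Adra2a was lower in all 3 (28.04 to 40.1 against 41.3 to 70.9 CPM), with a log2 difference of -0.62 (-1.09 to -0.14, edgeR, adjusted p = 0.131). Over the alternatives, the adjusted p ran from 0.0899 to 0.714 for Adra1b and from 0.0640 to 0.335 for Adra2a.

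The other 7 genes overlapped between the injured groups. Chrm2 had a log2 difference of 0.87 with an interval of -0.06 to 1.80 (edgeR, adjusted p = 0.226), an interval that reaches well above 1.5-fold upward. The intervals were -0.84 to 1.43 for Chrm1, -0.40 to 1.09 for Chrm3, -0.42 to 0.53 for Adra1a, -0.88 to 0.52 for Adra1d, -0.72 to 1.47 for Adra2c and -0.78 to 0.81 for Adrb1. Only that of Adra1a stayed within 1.5-fold on both sides.

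Of the other genes of the receptor pathways, 1 was a DEG between the injured groups, among 9 tested nicotinic receptor genes. No gene of the other pathway lists was called, and 1.04% of all genes tested were DEGs, so no result about the pathways is drawn from it. Chrnb4, a nicotinic receptor subunit, stood at 23.9, 25.5 and 31.4 CPM in injured VEGFR3fl/fl and at 45.2, 50.4 and 38.9 CPM in injured VEGFR3iLECko irises (log2 difference 0.73, edgeR, adjusted p = 0.0384). The groups did not overlap, but the call was lost in 11 of 22 alternatives, with an adjusted p of up to 0.368. Of 10 macrophage markers, 8 were lower without overlap, against 14.3% of all genes tested. DEGs were 5 of the 10, all lower (Adgre1, C1qa, C1qb, C1qc and Fcgr1), against 0.466% of all genes tested. These calls held in 12 (Adgre1) to 21 (Fcgr1) of 23 fits, the reported one included. The sum of the 10 markers was 3290 to 3630 CPM in injured VEGFR3fl/fl and 2030 to 2330 CPM in injured VEGFR3iLECko libraries. The part of these markers in the level of Adra2a was not tested. Y-linked expression was present in 2 of 3 injured VEGFR3fl/fl and in no injured VEGFR3iLECko library, and injured VEGFR3fl/fl replicate 3, the library without it, had the highest Adra2a level of all (70.9 CPM) and an Adra1b level of 5.97 CPM, below every injured VEGFR3iLECko library. With the Y-linked level as a covariate, the log2 difference was -0.98 for Adra2a and 0.34 for Adra1b (edgeR, adjusted p = 0.250 and 0.714). Since only injured VEGFR3fl/fl replicate 3 lacked Y-linked expression in its group, neither its levels nor this fit can tell genotype and Y-linked expression apart.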

How the data were processed

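Iris libraries (9, single-end reads of 50 bases) were grouped by title and description, because the genotype tag of 2 injured VEGFR3iLECko libraries names another VEGFR number. The authors deposited estimated counts per gene and library, not normalized, of which 9.83% to 10.3% were not whole numbers. Per the labels, reads were aligned to mm10 with HISAT2 2.0.4 and Bowtie2 2.2.5. The annotation, the counting program and the use of strand are not given in the sources used here. A combined table with identical values and group averages was not used.

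Estimated counts were rounded and analyzed in R 4.3.3 with edgeR 4.0.16: filterByExpr (15010 of 18349 genes kept), TMM factors (0.900 to 1.09), and a quasi-likelihood F test on all 9 libraries with group as the only term. P values were adjusted by Benjamini-Hochberg over all genes tested. A DEG had an adjusted p under 0.05 and a fold change over 1.5, the thresholds of the study, whose test was DESeq2 on genes with TPM of at least 2. Here DESeq2 1.42.0, that filter on approximate TPM, limma-voom (limma 3.58.1), other scalings, other filters, other fold thresholds, only the 6 libraries compared, a replicate block, a Y-linked covariate and leaving out each library were alternatives. Exact permutation tests were two-sided, and each gene's fold change was estimated on the log2 scale by edgeR. Approximate TPM used the longest GENCODE M21 transcript (GRCm38), found for 97.6% of genes, or its median length as an alternative. Profile likeness was Pearson's r of log2(CPM + 0.5). In a test on simulated data with 15010 genes, 171 of 200 genes changed 3-fold were recovered in the injured versus Sham comparison, with 0 in the wrong direction and 3 false calls. Far fewer genes were changed there than the 39.7% called in the data, so it cannot speak for scaling or false calls at that share. Replicates of a group differed by 5.13 to 76.2 times the variance of sampling noise (chi-square per degree of freedom), so none was a repeated library. Replicate numbers did not pair libraries across groups (correlation of same-numbered deviations -0.387 to 0.131). Per the study's methods, each group comprised 3 pools of 3 mice over 3 sequencing experiments, and which library belonged to which experiment is not given there.

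The text names the 9 receptor genes and, of each of 22 gene lists, the most abundant gene, up to 3 DEGs with the largest change after injury and any DEG between the injured groups, where a result turns on them. The members and lists were chosen with earlier results of these data known. Promoter sequences are from RefSeq (GRCm38.p6). Results for some genes that this rule would name are not reported here.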

Additional observations from a re-analysis of the deposited data

How the results depend on the processing

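Over 22 alternatives, the 9 receptor genes gave 197 values for injured versus Sham irises, of which 185 kept direction and call, 11 lost the call (Chrm3 and Adra1d), 1 gained it (Chrm1) and 0 reversed. The number of receptor genes called stayed at 5 to 7 of 9. Between the injured groups 0 were called under every alternative, and 9 of 197 values, none called, reversed. With the TPM filter of the study, 1 receptor gene (Adra2c) was left out where the filter here left out 0. Under the Y-linked covariate, Adrb1 turned to -0.18 between the injured groups and Chrm1 to 0.07 for injured VEGFR3iLECko versus Sham irises. Leaving out single libraries gave log2 fold changes of -0.25 to 3.14 for Aldh3a1 after injury. Between the injured groups they ran from -0.09 to 1.06 for Chrm1, -0.20 to 0.20 for Adra1a, -0.25 to 0.71 for Adra2c and -0.10 to 0.18 for Adrb1, and for injured VEGFR3iLECko versus Sham irises from -0.82 to 0.11 for Adra2c. Replicate numbers did not pair the libraries (2 of 9 correlated best with their own number). With the replicate block, 6 receptor genes were called for injured versus Sham irises (Adra1d lost, adjusted p = 0.0511 by edgeR), 6 for injured VEGFR3iLECko versus Sham irises (Chrm3 gained, 0.0214) and 0 between the injured groups. Without Sham replicate 3, Adra1d was called for injured VEGFR3iLECko versus Sham irises (0.0374). Over all genes, the 86 higher and 70 lower DEGs between the injured groups became 344 and 282 by DESeq2, 11 and 13 with the block, 0 and 2 with the Y-linked covariate and 0 and 0 with only the 6 libraries compared. They became 0 and 0 without iLECko replicate 2, 3 and 6 without iLECko replicate 1, 46 and 17 without iLECko replicate 3, 3 and 8 without Sham replicate 3, 10 and 16 without Sham replicate 1, 38 and 38 without Sham replicate 2, 102 and 149 without injured replicate 2 and 174 and 107 without injured replicate 3, so the share of 1.04% rests on this choice of libraries. Of 132 values of list genes called between the injured groups, 50 lost the call. The cause was not tested. Adra2c and Adrb1 had the fewest counts, at 9 to 66 per library.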
